A study of Homo sapiens with 9 samples.

Results

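The mucin genes MUC1, MUC4, MUC5B, MUC5AC, MUC13, MUC15, MUC16 and MUC20 were taken by name from 58237 genes of GENCODE release 29 with transcripts in the files, and all 8 were detected and tested. They were measured by RNA-seq in H358, an established human cell line of non-small cell lung carcinoma, kept in serum-containing RPMI medium. There were 3 groups of 3 libraries of total RNA: H358 with a CRISPR knockout of SMARCA4, the gene of BRG1 (BRG1 KO), H358 with a CRISPR knockout of SMARCA2, the gene of BRM (BRM KO), and parental H358. A SWI/SNF complex slides and evicts nucleosomes with either BRG1 or BRM as its motor. The labels do not say whether a knockout was a clone or a pool. They do not say whether replicates came from separate cultures, so p-values reflect only the spread between the libraries, which may be technical. Parental cells were the only control, so effects of editing and of culture since editing cannot be told apart from those of the lost gene.

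Mucins are large glycoproteins whose backbones carry long stretches rich in serine, threonine and proline, often built from tandem repeats, and these stretches are densely covered with O-linked glycans. The gel-forming mucins MUC5B and MUC5AC are secreted, link into polymers through disulfide bonds and form the mucus layer of the airway. MUC1, MUC4, MUC13, MUC15, MUC16 and MUC20 are mucins of the cell surface, where they form part of the glycocalyx. In the lung, the gel-forming mucins are made mainly by secretory epithelial and gland cells, and several mucins are also expressed in lung adenocarcinoma.

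The repeat units are shown because repeats bear on how short reads are assigned to transcripts. MUC1, MUC4, MUC20 and MUC5AC were searched in 1 GENCODE 29 transcript each, with unit lengths of 60, 48, 57 and 24 bases set in advance. The most frequent exact unit of that length is shown. MUC5B, MUC13, MUC15 and MUC16 were not searched for a unit.
MUC1-223 on chromosome 1: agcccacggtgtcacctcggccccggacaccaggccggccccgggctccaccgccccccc
MUC4-209 on chromosome 3: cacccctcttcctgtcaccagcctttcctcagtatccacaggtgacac
MUC20-201 on chromosome 3: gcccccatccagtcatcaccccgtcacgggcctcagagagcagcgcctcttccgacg
MUC5AC-201 on chromosome 11: ctcctacaaccagcacaacctctg
The 60-base unit of MUC1 occurred in 19 exact copies between bases 534 and 2835 of the 4170-base transcript. The 48-base unit of MUC4 had 14 exact copies, the 24-base unit of MUC5AC 16 and the 57-base unit of MUC20 only 2. Of all 31-base words in the main transcript, 41.9% occurred more than once within MUC4-209, 36.4% within MUC5B-204, 30.9% within MUC5AC-201 and 3.61% within the 43816-base MUC16-201. A read from a repeat within 1 gene still counts for that gene in a sum per gene, whereas a read from words shared between genes can be split. MUC20 was the uncertain member: 76.2% of the words of MUC20-201 also occurred in another gene, and 50.6% of all its words occurred in the pseudogene MUC20P1, so its reads may be split with that copy. For the main transcripts of the other 7 genes the shared portion was at most 4.09%.

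The libraries held 31969961 to 40679073 estimated reads. SMARCA4 averaged 22.9 ± 1.51 CPM in BRG1 KO cells, 245 ± 4.72 CPM in BRM KO cells and 224 ± 17.4 CPM in parental cells (SD, n = 3 each). SMARCA2 averaged 45.2 ± 14.8, 10.6 ± 1.34 and 54.3 ± 4.47 CPM in the same order of groups, so each edited gene was low in the group labelled with it. CPM stands here for TMM-scaled estimated reads per 1000000 reads of a library. The BRG1 KO libraries differed in their share of ribosomal protein reads, at 9.57%, 10.1% and 5.42% for replicates 1 to 3, against 5.89% to 5.94% in BRM KO and 4.57% to 5.36% in parental libraries. Parental replicate 1 had the highest value of its group for 7 of the 8 mucins and BRG1 KO replicate 3 the lowest of its group for 4. Mucin values that move over 1.5-fold without either library are also given without it. For other named genes this was not done.

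Most of the mucins were lower in BRG1 KO cells and most were higher in BRM KO cells than in parental cells. In BRG1 KO cells 7 of the 8 mucins fell against parental cells and none rose, where 21.9% of all 18205 genes tested fell and 21.6% rose. In BRM KO cells MUC4, MUC5B, MUC15, MUC16 and MUC20 rose and MUC13 fell, where 21.0% of all genes rose and 16.4% fell. The members and the lists below were chosen with earlier results of these data known, so these shares are not a neutral reference for their counts. MUC13 passed the filter on low counts through its parental libraries, at 0.405 to 1.14 CPM against at most 0.184 CPM in any knockout library. Its falls are therefore not independent of that filter. MUC15 passed that filter through its BRM KO libraries, at 4.28 to 5.74 CPM, against 0.183 to 0.891 CPM in parental libraries. In BRG1 KO libraries MUC15 had at most 0.0284 CPM. Its higher level in BRM KO cells than in either other group is likewise not independent of the filter. A change was called at an adjusted p under 0.05 in edgeR's quasi-likelihood test, with Benjamini-Hochberg adjustment over all genes tested. The median log2 fold change over the 8 genes was -5.01 in BRG1 KO and 2.65 in BRM KO cells, against -0.01 and 0.09 over all genes. The median in BRG1 KO cells was the same with MUC5AC, at 0 reads there, set at its bound. Without both parental replicate 1 and BRG1 KO replicate 3, 6 mucins fell in BRG1 KO cells, and 5 rose and 1 fell in BRM KO cells. With bulk RNA, fewer cells making a mucin and less mucin RNA per cell cannot be told apart. Both knockouts were set against the same parental libraries.

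**Figure D1:**
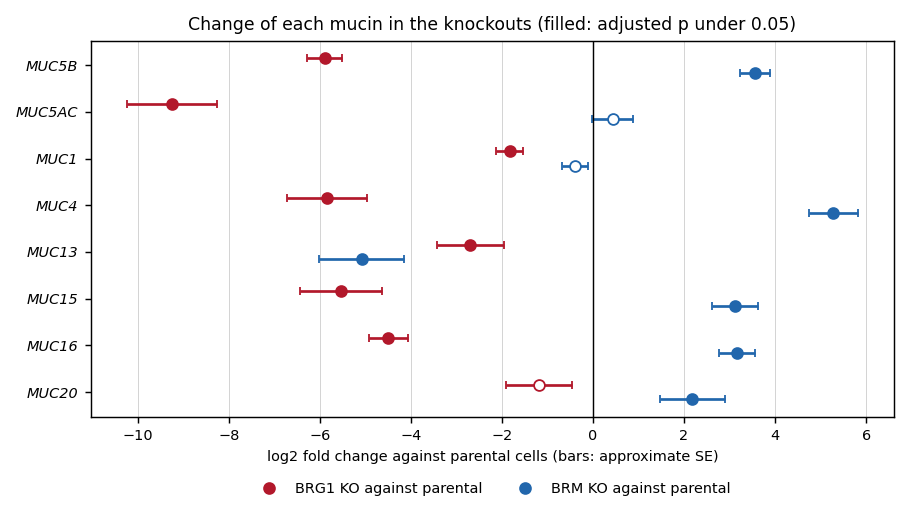
Log2 fold change of each mucin against parental cells (x axis), in BRG1 KO (red) and BRM KO cells (blue), with bars for the approximate standard error; filled points had an adjusted p under 0.05. All red points lie below 0, with MUC20 not called, and the blue points lie above 0 except for MUC13 and MUC1. The bar of MUC5AC in BRG1 KO cells is not reliable, since that group had 0 reads.

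Lung epithelial markers moved with the mucins in BRG1 KO cells. Of the 12 listed, 10 were tested. In BRG1 KO cells 8 of them fell and none rose, where 21.9% of all genes fell and 21.6% rose. In BRM KO cells 3 of them rose and none fell, where 21.0% of all genes rose and 16.4% fell. The 12 markers summed to 446 to 1351 CPM in BRG1 KO libraries, 6857 to 8081 CPM in BRM KO libraries and 6764 to 7110 CPM in parental libraries. The surfactant protein genes SFTPB and SFTPC were under 1 CPM in all 3 groups. The 9 listed fibroblast markers summed to 397 to 1034 CPM in BRG1 KO libraries, 82.8 to 127 CPM in BRM KO libraries and 32.5 to 63.5 CPM in parental libraries. None of the fibroblast markers was at 0 in any group. Of the 7 tested, 5 rose and none fell in BRG1 KO cells, beside 21.6% and 21.9% of all genes, but COL1A2, DCN and FAP stayed under 1 CPM there. In BRM KO cells 1 rose and 1 fell. The 11 blood and endothelial markers summed to at most 7.77 CPM in any library, with CD3E, MS4A1 and HBA1 at 0 in BRG1 KO libraries. The part of these markers and of the ribosomal protein share in the mucin results was not tested.

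MUC5B, the main gel-forming mucin of the distal airway, was under 1 CPM in BRG1 KO cells and was the most abundant member per length in BRM KO cells. The gene lies at chr11:1223066-1262172 on the plus strand, in hg38 coordinates as for all genes below. It had 0.909, 0.816 and 0.941 CPM in the BRG1 KO libraries, 675, 539 and 669 CPM in the BRM KO libraries, and 85.9, 31.6 and 42.0 CPM in the parental libraries. The groups did not overlap, and the parental libraries varied most relative to their mean, with replicate 1 highest. MUC5B fell by 5.90 ± 0.39 on the log2 scale in BRG1 KO cells (59.6-fold; adjusted p = 2.84e-06) and rose by 3.56 ± 0.33 in BRM KO cells (11.8-fold; adjusted p = 0.00010). Here and below the error of a log2 fold change is an approximate standard error. The 17911-base transcript MUC5B-204 carried 99.8% of the gene's reads in BRM KO cells and 97.7% in parental cells. In BRG1 KO cells, with 97 reads in all, it carried 68.4% ± 16.7 and the intron-retaining MUC5B-201 the remaining 31.6% ± 16.7 (SD, n = 3).

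MUC5AC, the inducible gel-forming mucin of the proximal airway and stomach, was the only member without a read in a whole group. It lies 21927 bases from MUC5B, at chr11:1157953-1201138 and on the same strand. There were 0 reads in each BRG1 KO library, 69, 114 and 120 reads in the BRM KO libraries, and 111, 43 and 70 reads in the parental libraries. The BRM KO and parental libraries overlapped, and every library of both groups was above the BRG1 KO libraries. Counted against a floor of 3 reads over the group, MUC5AC was at least 72.4-fold lower in BRG1 KO than in parental cells (adjusted p = 0.000122). In BRM KO cells its log2 fold change of 0.43 ± 0.46 did not pass the test (adjusted p = 0.498), whereas the neighbouring MUC5B rose. The BRM KO value of MUC5AC turned to -0.10 with a correction for GC content and length.

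**Figure D2:**
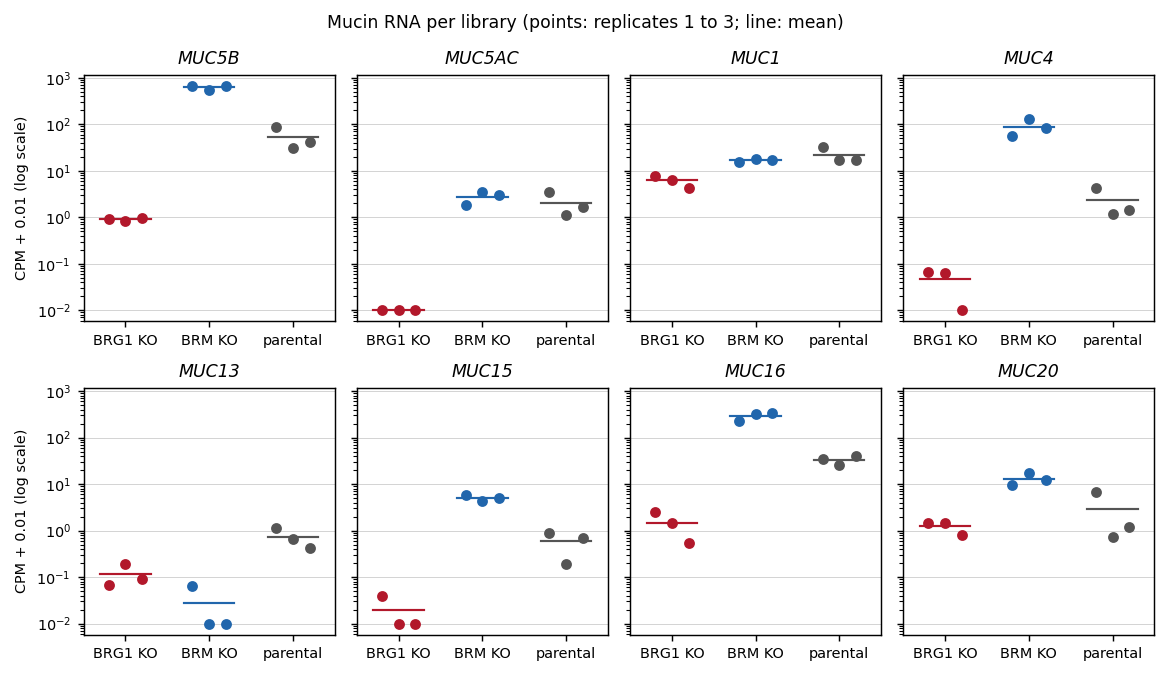
Level of each mucin in the 9 libraries, as TMM-scaled CPM + 0.01 on a log axis; points are replicates 1 to 3 from left to right and lines are group means, for BRG1 KO, BRM KO and parental cells. MUC5B spans from under 1 CPM in BRG1 KO to over 500 CPM in BRM KO libraries, MUC5AC sits at 0 reads in BRG1 KO libraries, and MUC13 is the only gene whose BRM KO points are the lowest.

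MUC1, the widely expressed membrane mucin with a signalling cytoplasmic tail, changed least among the 7 that fell with BRG1. It lies at chr1:155185824-155192916 on the minus strand. Its level was 7.90, 6.45 and 4.29 CPM in BRG1 KO libraries, 15.4, 17.9 and 17.2 CPM in BRM KO libraries, and 32.3, 17.2 and 16.9 CPM in parental libraries. All BRG1 KO libraries were below all others, while the BRM KO libraries overlapped the parental ones, of which replicate 1 stood above the rest. MUC1 fell by 1.83 ± 0.29 in BRG1 KO cells (3.56-fold; adjusted p = 0.000616). Its log2 fold change in BRM KO cells was -0.39 ± 0.28 and did not pass the test (adjusted p = 0.302). The annotated MUC1 transcripts differ in the repeat shown above. MUC1-228, 1811 bases long and without a repeated 31-base word, carried 53.3% ± 13.9, 56.1% ± 5.29 and 61.1% ± 3.27 of MUC1 reads in BRG1 KO, BRM KO and parental cells (SD, n = 3 each). The repeat-bearing MUC1-223 carried 25.9% ± 6.18, 31.02% ± 4.88 and 26.5% ± 1.09 of the reads in the same groups. The ranges of MUC1-228 overlapped between all 3 groups, and those of MUC1-223 overlapped except between BRM KO (27.9% to 36.6%) and parental cells (25.9% to 27.8%). Salmon divides reads between transcripts by estimation, which is least certain in repeats.

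MUC4, a very large membrane mucin that binds the receptor ERBB2, had the largest rise among the members in BRM KO cells. It lies at chr3:195746765-195812277 on the minus strand. The BRG1 KO libraries held 2, 2 and 0 reads of MUC4, the BRM KO libraries 2110, 4232 and 3295, and the parental libraries 141, 45 and 61. The 3 groups were fully separate, and parental replicate 1 was again the highest of its group. MUC4 rose by 5.28 ± 0.54 in BRM KO cells (38.9-fold; adjusted p = 0.000169), and by 6.08 (adjusted p = 4.98e-05) without parental replicate 1. With 4 reads in all in BRG1 KO cells against 247 in parental cells, the ratio of parental to BRG1 KO was 59.8, with an exact 95% counting interval of 23.1 to 221 (log2 fold change -5.84, adjusted p = 0.000537, or -5.05 without parental replicate 1). Such intervals cover counting error only. In BRM KO cells MUC4-209, at 17110 bases the longest of the annotated forms with reads, carried 37.9% ± 10.4 of the reads and the 3982-base MUC4-203 carried 19.7% ± 0.810 (SD, n = 3 each). MUC4-203 had no reads assigned in parental cells.

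MUC20, a small membrane mucin known in the kidney and as a partner of the receptor MET, was the least certain member. It lies 5641 bases from MUC4, at chr3:195720882-195741123 on the plus strand. Its level was 1.47, 1.44 and 0.775 CPM in BRG1 KO libraries, 9.64, 17.0 and 12.0 CPM in BRM KO libraries, and 6.71, 0.705 and 1.15 CPM in parental libraries. The BRM KO libraries were above all others, and the BRG1 KO libraries overlapped the parental ones, whose replicate 1 alone was high. MUC20 rose by 2.18 ± 0.71 in BRM KO cells (4.54-fold; adjusted p = 0.0353). Leaving out any single library other than parental replicate 1 ended that call, with log2 fold changes of 1.72 to 2.27 and adjusted p from 0.0519 to 0.114, and without parental replicate 1 the rise was 3.79. Against parental cells the BRG1 KO value was -1.20 ± 0.73 (adjusted p = 0.209), and it turned to 0.41 (adjusted p = 0.441) without parental replicate 1. The pseudogene copy MUC20P1 also rose in BRM KO cells, by 1.90 ± 0.53 (adjusted p = 0.017), and reads of both cannot be fully told apart. The long non-coding MUC20-OT1 overlaps MUC20 on the same strand over 19083 bases and held up to 1217 reads in a library.

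MUC16, the giant membrane mucin that carries the CA125 antigen, fell in BRG1 KO cells and rose in BRM KO cells. It lies at chr19:8848844-8981342 on the minus strand. It had 2.47, 1.42 and 0.526 CPM in BRG1 KO libraries, 231, 315 and 346 CPM in BRM KO libraries, and 34.4, 26.1 and 39.2 CPM in parental libraries. The groups were separate, and BRG1 KO replicate 3 was the lowest library of all. MUC16 fell by 4.50 ± 0.43 in BRG1 KO cells (22.6-fold; adjusted p = 3e-05) and rose by 3.16 ± 0.39 in BRM KO cells (8.94-fold; adjusted p = 0.000312). The fall was 2.92 on the log2 scale (adjusted p = 0.0234) when an offset allowed for transcript length, and 5.14 without BRG1 KO replicate 1. The 43816-base MUC16-201 carried 86.8% ± 3.23 of the reads in BRM KO cells and 88.8% ± 3.16 in parental cells, against 52.8% ± 42.3 in BRG1 KO cells (SD, n = 3 each), whose 160 reads in all make that share imprecise.

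MUC15, a short membrane-bound mucin, followed the same order of groups at a low level. It lies at chr11:26559033-26572233 on the minus strand. The BRG1 KO libraries held 1, 0 and 0 reads, the BRM KO libraries 214, 142 and 202, and the parental libraries 29, 7 and 28. No group overlapped another. MUC15 passed the filter on low counts through its BRM KO libraries, so its rise there is not independent of that filter. MUC15 rose by 3.12 ± 0.51 in BRM KO cells (8.70-fold; adjusted p = 0.00107). The ratio of parental to BRG1 KO reads was 62.0, with a counting interval of 10.7 to 2488 (log2 fold change -5.53, adjusted p = 0.000671). Without BRG1 KO replicate 1, the only BRG1 KO library with a read, the fitted value was -7.47 and is not a bound.

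MUC13, a membrane mucin best known from the intestine, was the only member that fell in both knockouts. It lies at chr3:124905442-124953819 on the minus strand. There were 2, 7 and 3 reads in the BRG1 KO libraries, 2, 0 and 0 in the BRM KO libraries, and 37, 25 and 17 in the parental libraries. All parental libraries were above all knockout libraries. MUC13 fell by 2.70 ± 0.73 in BRG1 KO cells (6.50-fold; adjusted p = 0.0122), a call that was lost without parental replicate 1 (-2.24, adjusted p = 0.0555) and was -3.38 (adjusted p = 0.0147) without BRG1 KO replicate 2. The ratio of parental to BRM KO reads was 38.5, with a counting interval of 10.3 to 324 (log2 fold change -5.08, adjusted p = 0.00202). Without BRM KO replicate 1, the only BRM KO library with reads, the fitted value was -7.80 and is not a bound. A gene with 17 to 37 reads in its highest group is measured with little depth.

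Compared per length, in the authors' TPM summed per gene, the order of the mucins differed between the genotypes. In BRG1 KO cells MUC1 led with 5.11 ± 1.58 TPM, 76.6% of the mucin total, followed by MUC20 with 1.03 ± 0.202 and MUC16 with 0.308 ± 0.257 TPM. The other 5 were at or under 0.132 TPM there. In BRM KO cells MUC5B led with 54.6 ± 14.1 TPM, 43.3% of the total, and MUC16 (21.9 ± 3.76 TPM), MUC4 (18.8 ± 8.38), MUC1 (15.7 ± 2.56) and MUC20 (11.9 ± 3.998) followed, with each neighbour in that order of 4 overlapping the next. MUC15 was at 2.93 ± 0.471, MUC5AC at 0.217 ± 0.0640 and MUC13 at 0.00933 ± 0.0162 TPM. In parental cells MUC1 led with 19.9 ± 8.001 TPM, 62.3% of the total, above MUC5B with 5.71 ± 2.57, and every neighbour below MUC5B overlapped the next, down to MUC5AC with 0.167 ± 0.0912 TPM (SD, n = 3 throughout). The 8 genes summed to 6.67 ± 2.07 TPM in BRG1 KO, 126 ± 2.25 TPM in BRM KO and 31.9 ± 13.2 TPM in parental cells. The BRM KO sums differed by little in TPM between libraries, with MUC5B highest in replicate 1 and MUC4 highest in replicate 2. In CPM the BRM KO sums were 994, 1024 and 1136 for replicates 1 to 3, and MUC5B was at 675, 539 and 669. Salmon assigned 78.1 reads to the 461-base MUC5B-202 in replicate 1 and 0 in the other BRM KO libraries. That short form took 7.40% of MUC5B TPM on average, so TPM differences between these libraries rest in part on such assignment. The order between genes does so too. In BRM KO cells the 4079-base MUC16-204 took 10.4% of MUC16 reads but 49.1% of MUC16 TPM. The 43816-base MUC16-201 took 86.8% of the reads and 36.6% of the TPM there.

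**Figure D3:**
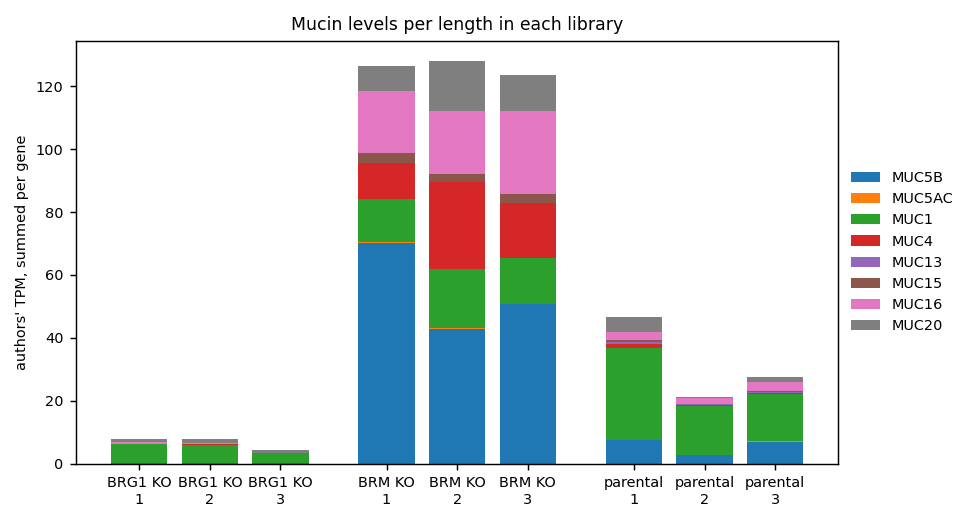
Mucin levels per length in each library, as the authors' TPM summed per gene and stacked by gene (y axis), for replicates 1 to 3 of BRG1 KO, BRM KO and parental cells. The BRM KO bars reach 124 to 128 TPM with MUC5B as the largest block, the parental bars 21.4 to 46.7 TPM with MUC1 as the largest, and the BRG1 KO bars 4.29 to 7.98 TPM.

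The direct test of BRG1 KO against BRM KO cells asked whether the knockouts differed from each other. It found 7 mucins lower in BRG1 KO cells, where 23.8% of all genes were lower, and MUC13 not passing. The values are log2 fold changes of -11.12 ± 0.81 for MUC4, -9.46 ± 0.44 for MUC5B, -7.66 ± 0.49 for MUC16, -3.38 ± 0.75 for MUC20 and -1.44 ± 0.29 for MUC1. MUC5AC was at least 100-fold lower in BRG1 KO cells, and the ratio of BRM KO to BRG1 KO reads was 555 for MUC15, with a counting interval of 99.1 to 21944. Adjusted p was at most 0.00492 among the 7. The median over the 8 genes was -8.15, or -7.15 with MUC5AC at its bound, against -0.00 over all genes. For MUC13, with 12 reads in all in BRG1 KO and 2 in BRM KO libraries, the log2 fold change was 2.38 ± 1.09 (adjusted p = 0.0963).

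Genes from the same chromosome regions as the mucins were described in the same way, from a list that reaches from overlapping genes to ZNF562, 660465 bases from MUC16. Of its 21 tested genes, 9 rose and 3 fell in BRG1 KO cells, with a median log2 fold change of 0.52, where 21.6% of all genes rose and 21.9% fell. The list had 10 that rose and 2 that fell in BRM KO cells, with a median of 0.75, where 21.0% of all genes rose and 16.4% fell. Without parental replicate 2 or without parental replicate 3, the numbers that rose were 4 in BRG1 KO and 6 in BRM KO cells. THBS3, a thrombospondin 2671 bases from MUC1, averaged 51.4 ± 14.4, 16.9 ± 2.93 and 8.46 ± 3.45 CPM in BRG1 KO, BRM KO and parental cells (SD, n = 3 each) and rose by 2.61 ± 0.31 in BRG1 KO cells (adjusted p = 9.1e-05), where MUC1 fell. HEG1, itself a mucin-like membrane protein and 11890 bases from MUC13, rose by 2.26 ± 0.24 in BRG1 KO cells (adjusted p = 4.3e-05). Its value in BRM KO cells was 0.19 ± 0.23 (adjusted p = 0.55). BRSK2, a kinase gene 127726 bases from MUC5B, rose by 2.46 ± 0.31 in BRM KO cells (adjusted p = 0.00031). TFRC, 214905 bases from MUC4, fell by 1.19 ± 0.24 in BRG1 KO cells (adjusted p = 0.0025). It also fell by 0.97 ± 0.24 in BRM KO cells (adjusted p = 0.0092). By midpoint, 11 other tested genes lay within 250 kb of the centre of the gap between MUC20 and MUC4. Of these, 2 rose and 2 fell in BRG1 KO cells, beside 21.6% and 21.9% of all genes. In BRM KO cells 6 rose and 0 fell, beside 21.0% and 16.4% of all genes. Among the 6 were MUC20P1, whose reads cannot be fully told apart from those of MUC20, and MUC20-OT1, which overlaps MUC20. Both are therefore not separate from MUC20, and both also count among the 10 of the list that rose. TFRC lay outside this window by its midpoint. The 2 within it that fell in BRG1 KO cells were APOD, which encodes a lipocalin, and TNK2-AS1. APOD had 0 reads in every BRG1 KO library, against 13, 11 and 13 in parental libraries, and was at least 12.0-fold lower (adjusted p = 0.0078). Around the gap between MUC5AC and MUC5B, counted in the same way, 1 of 4 other tested genes rose in BRG1 KO cells. In BRM KO cells 3 rose, and none fell in either knockout.

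**Figure D4:**
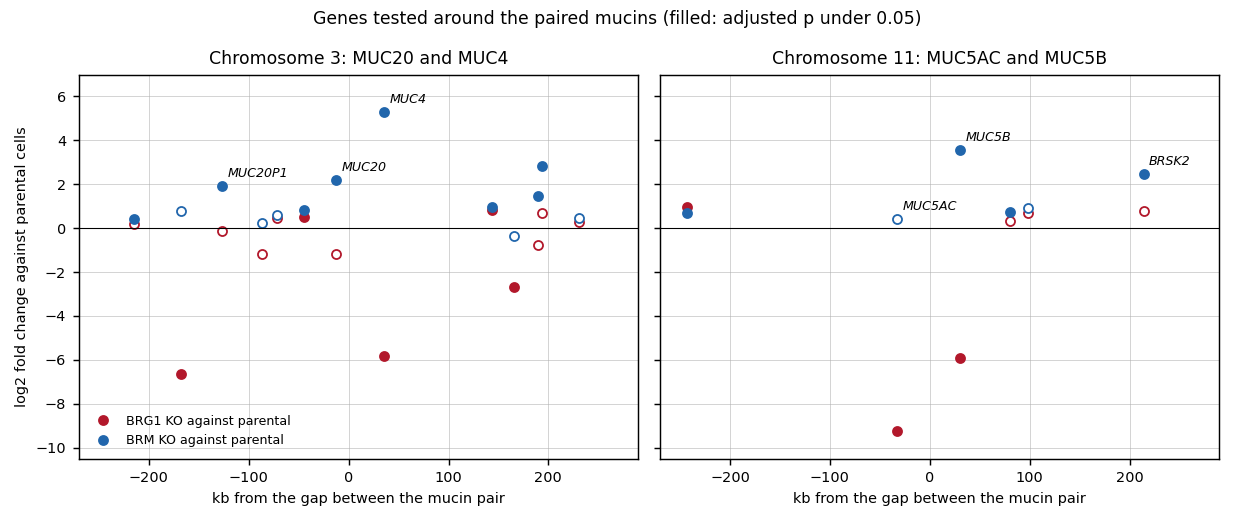
Log2 fold change against parental cells (y axis) of the genes tested around the 2 mucin pairs, by distance in kb of their midpoint from the gap's centre. Genes are shown where that distance was at most 250 kb. Red is BRG1 KO, blue is BRM KO, and filled points had an adjusted p under 0.05. MUC4, MUC5B and MUC5AC stand at -5.84, -5.90 and -9.25 in BRG1 KO cells, while 2 other genes in the left panel and none in the right were called lower there. The unlabelled low red points in the left panel are APOD and TNK2-AS1.

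The sequence before the start of 3 members is shown because the transcription factors listed below include some that bind the words searched for. The windows hold the 250 bases upstream of the RefSeq start in GRCh38.p14, on the gene's strand, and 4 of the 8 members had such windows. Capitals mark matches, on either strand, to 8 words that were searched. The forkhead words were TGTTTAC and, as a variant of it, TATTTAC. The NKX2-1 word was CAAGTG, and the ETS factors were searched with GGAAGT. For AP-1 the word was TGANTCA, while grainyhead factors were given ACCNGTT. The GC box was GGGCGG, and the TATA box was searched as TATAAA. None of the words contains another, and copies of the GC box that share letters are counted separately.
MUC1, chr1:155192916-155193165, minus strand: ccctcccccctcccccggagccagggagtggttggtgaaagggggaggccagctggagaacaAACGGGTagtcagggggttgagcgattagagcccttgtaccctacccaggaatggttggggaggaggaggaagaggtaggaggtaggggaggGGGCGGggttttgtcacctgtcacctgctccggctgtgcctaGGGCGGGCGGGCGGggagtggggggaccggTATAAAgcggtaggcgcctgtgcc
MUC4, chr3:195811930-195812179, minus strand: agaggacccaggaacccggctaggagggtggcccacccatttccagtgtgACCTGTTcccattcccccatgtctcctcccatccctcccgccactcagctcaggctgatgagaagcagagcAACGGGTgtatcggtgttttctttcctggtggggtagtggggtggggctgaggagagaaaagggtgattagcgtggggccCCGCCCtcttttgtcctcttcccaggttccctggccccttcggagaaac
MUC13, chr3:124934752-124935001, minus strand: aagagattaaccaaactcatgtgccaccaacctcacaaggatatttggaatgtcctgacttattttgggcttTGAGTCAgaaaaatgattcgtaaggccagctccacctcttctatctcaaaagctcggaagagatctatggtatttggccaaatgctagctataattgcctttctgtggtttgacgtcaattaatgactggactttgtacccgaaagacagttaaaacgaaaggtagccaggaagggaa
The MUC1 window held 4 GC boxes, 3 of them overlapping or adjoining at 54 to 46 bases before the start, a TATA box at 24 bases and a grainyhead word at 188 bases. The MUC4 window held grainyhead words at 200 and 129 bases and a GC box at 49 bases. The MUC13 window held an AP-1 word at 178 bases. Of 35116 RefSeq windows of that length, 5.37% held the grainyhead word, 42.6% the GC box, 10.7% the TATA box and 6.57% the AP-1 word. A match is a description of letters and not of a bound site. The RefSeq windows of MUC16 lie 29067 and 84409 bases from the nearest GENCODE start and are not shown, and MUC5B, MUC5AC, MUC15 and MUC20 are named only.

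Among 15 other mucins and mucin-like glycoproteins, 3 passed the filter on low counts. MUC2 and MUC6, the gel-forming mucins beside MUC5AC, averaged at most 0.106 and 0.0545 CPM in any group. OVGP1, the oviduct glycoprotein, averaged 2.15 ± 0.924, 4.29 ± 0.336 and 0.657 ± 0.444 CPM in BRG1 KO, BRM KO and parental cells (SD, n = 3 each), and rose by 1.72 ± 0.53 in BRG1 KO cells (adjusted p = 0.023) and by 2.72 ± 0.54 in BRM KO cells (adjusted p = 0.003). Without parental replicate 2 or 3, or without BRG1 KO replicate 1 or 2, the number of these genes that rose in BRG1 KO cells was 1. MCAM, an adhesion molecule of melanoma and vessel cells, rose by 2.64 ± 0.36 in BRG1 KO cells (adjusted p = 0.00023) and fell by 2.82 ± 0.43 in BRM KO cells (adjusted p = 0.00072). CD164, a sialomucin, passed the test in neither knockout, with log2 fold changes of 0.18 ± 0.16 and 0.11 ± 0.16.

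Most of the enzymes that build mucin-type O-glycans were lower in BRG1 KO cells. Of 24 tested, 15 fell and 5 rose there, with a median log2 fold change of -0.95, where 21.9% of all genes fell and 21.6% rose. In BRM KO cells 3 fell and 7 rose, with a median of 0.18, where 16.4% of all genes fell and 21.0% rose. B3GNT6, the core 3 synthase, averaged 0.0824 ± 0.0737, 83.6 ± 10.1 and 8.15 ± 7.49 CPM in BRG1 KO, BRM KO and parental cells (SD, n = 3 each). It fell by 6.56 ± 0.86 in BRG1 KO cells (adjusted p = 0.00025) and rose by 3.37 ± 0.57 in BRM KO cells (adjusted p = 0.0017). GCNT3, which adds the branch of core 2 and core 4 glycans, fell by 5.23 ± 0.69 in BRG1 KO (adjusted p = 0.00021) and rose by 3.34 ± 0.49 in BRM KO cells (adjusted p = 0.00066). B3GNT3, which extends core 1, fell by 5.04 ± 0.52 in BRG1 KO cells and stood at 0.06 ± 0.42 in BRM KO cells. The sialyltransferase ST3GAL1 averaged 3.08 ± 0.655, 0.683 ± 0.334 and 20.8 ± 2.83 CPM in the 3 groups and was called lower in both knockouts: it fell by 2.75 ± 0.31 in BRG1 KO cells and fell by 4.94 ± 0.35 in BRM KO cells. ST6GALNAC2, another sialyltransferase, rose by 2.83 ± 0.42 in BRG1 KO cells (adjusted p = 0.00039), and the fucosyltransferase FUT3 fell there by 2.80 ± 0.51 (adjusted p = 0.0015).

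The list of mucin folding and secretion held 17 tested genes of 27. There were 7 that fell and 4 that rose in BRG1 KO cells, with a median of -0.33, beside 21.9% and 21.6% of all genes. Against parental cells 1 fell and 6 rose in BRM KO cells, with a median of 0.59, beside 16.4% and 21.0% of all genes, and 3 rose without parental replicate 2. AGR2, the disulfide isomerase that mucin assembly needs, averaged 1.68 ± 1.62, 244 ± 17.3 and 73.9 ± 22.7 CPM in BRG1 KO, BRM KO and parental cells (SD, n = 3 each). It fell by 5.45 ± 0.85 in BRG1 KO cells (adjusted p = 0.00077), while its value of 1.72 ± 0.70 in BRM KO cells did not pass (adjusted p = 0.079). Of the granule machinery, the motor MYO5C fell by 3.54 ± 0.30, the priming factor UNC13D by 3.23 ± 0.16, the RAB27 effector SYTL2 by 2.87 ± 0.19 and the SNARE VAMP8 by 2.45 ± 0.37 in BRG1 KO cells. In BRM KO cells the small GTPase RAB3D rose by 1.80 ± 0.27 (adjusted p = 0.00071) and UNC13D fell by 1.22 ± 0.15 (adjusted p = 0.00028). FCGBP, a mucus-bound glycoprotein, rose in both knockouts, by 3.39 ± 0.31 and by 2.60 ± 0.31. The club cell protein SCGB1A1 and the trefoil proteins TFF1 and TFF3 averaged at most 0.0506 CPM in any group.

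Of 24 tested transcription factors described as regulators of mucin or mucous-cell genes, 15 fell and 1 rose in BRG1 KO cells, with a median of -1.44, beside 21.9% and 21.6% of all genes. There were 9 that rose and 4 that fell in BRM KO cells, with a median of 0.51, beside 21.0% and 16.4% of all genes. Without parental replicate 1, 3 rose in BRG1 KO cells, and without BRG1 KO replicate 2 it was 2. Without parental replicate 2, 5 rose in BRM KO cells, 4 did without parental replicate 3, and 2 fell there when parental replicate 1 or 2 or BRM KO replicate 2 or 3 was left out. NKX2-1, the lineage factor of the lung epithelium and one of the epithelial markers above, had 2 reads in all in BRG1 KO libraries against 8942 in parental libraries. The ratio of parental to BRG1 KO was 4333, with a counting interval of 1199 to 35787. NKX2-1 rose by 1.55 ± 0.24 in BRM KO cells (adjusted p = 0.00081). The ETS factor EHF fell by 7.65 ± 0.50 in BRG1 KO cells and fell by 1.06 ± 0.33 in BRM KO cells. GRHL2, a grainyhead factor of epithelia, fell by 4.73 ± 0.88 in BRG1 KO cells (adjusted p = 0.0021) and stood at -0.05 ± 0.74 in BRM KO cells. TP63, a factor of basal cells, fell by 4.73 ± 0.52 in BRG1 KO and rose by 2.43 ± 0.45 in BRM KO cells, and GRHL1 fell by 3.74 ± 0.51 and rose by 2.43 ± 0.43. CREB3L1, a membrane-bound factor of secretory cells, rose by 1.91 ± 0.40 in BRG1 KO cells and fell by 1.61 ± 0.41 in BRM KO cells.

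Among receptors, lectins and sheddases that partner with membrane mucins, the counts were near those over all genes. Of 21 tested, 5 rose and 6 fell in BRG1 KO cells, and 5 rose and 4 fell in BRM KO cells, with medians of -0.32 and 0.08. Over all genes, 21.6% rose and 21.9% fell in BRG1 KO cells, and 21.0% rose and 16.4% fell in BRM KO cells. In BRG1 KO cells 3 rose when any 1 parental replicate was left out and 10 fell without BRG1 KO replicate 3, and in BRM KO cells 7 fell without BRG1 KO replicate 2 or 3. ERBB2, the partner of MUC4, averaged 90.3 ± 24.1, 336 ± 19.7 and 121 ± 33.0 CPM in BRG1 KO, BRM KO and parental cells (SD, n = 3 each). It rose by 1.47 ± 0.24 in BRM KO cells (adjusted p = 0.00098), as did the kinase SRC, by 1.49 ± 0.25. ERBB3 fell by 4.48 ± 0.82 in BRG1 KO cells (adjusted p = 0.002) and EGFR by 1.48 ± 0.29. PODXL, a sialomucin of podocytes and endothelium, rose by 5.48 ± 0.23 in BRG1 KO cells, to 109 ± 26.5 CPM against 2.44 ± 0.136 CPM in parental cells. MMP14, a protease that can shed MUC1, rose by 3.67 ± 0.31 in BRG1 KO cells and fell by 1.79 ± 0.30 in BRM KO cells.

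**Figure D5:**
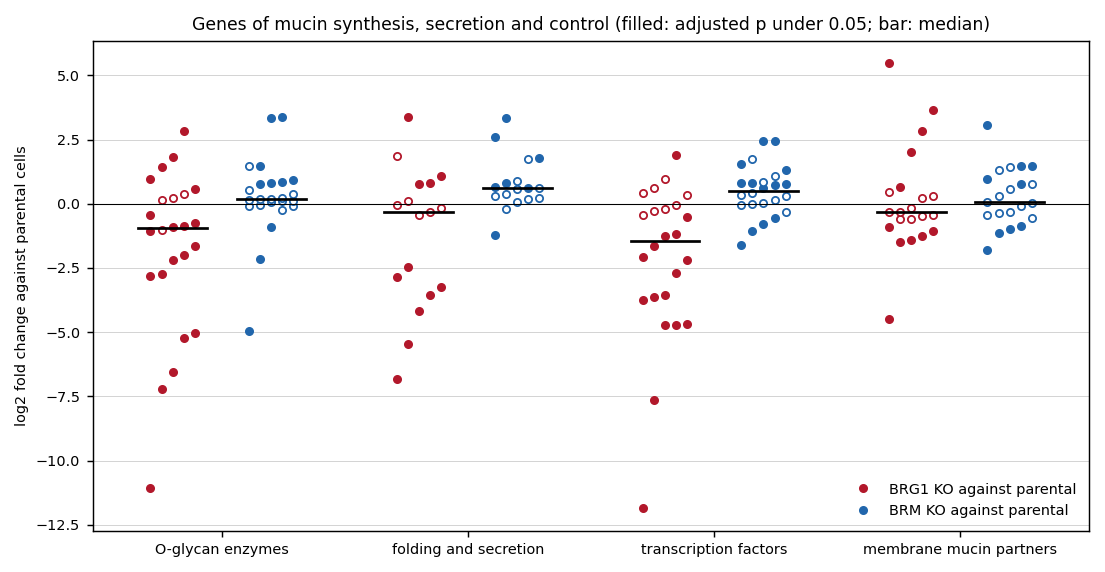
Log2 fold change against parental cells (y axis) of the genes tested in 4 lists, in BRG1 KO (red) and BRM KO cells (blue); filled points had an adjusted p under 0.05 and bars are list medians. The red medians lie between -1.44 and -0.32 and the blue ones between 0.08 and 0.59, with genes on both sides of 0 in every column.

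The protein-coding genes whose profile over the 9 libraries was most like that of each mucin were named by the smallest root-mean-square difference in centred log2 CPM among 11948 candidates. MUC4 was closest to B3GNT6 (0.817) and GCNT3 (1.08), and MUC5B to SPTB (0.516) and B3GNT6 (0.558), so the core 3 synthase stood among the nearest genes of both. MUC1 was closest to TAP1 (0.203), MUC16 to PTAFR (0.532) and TSPAN1 (0.543), MUC15 to VAV3 (0.347), MUC20 to SBK1 (0.393), MUC5AC to C1orf61 (0.422) and MUC13 to POLA2 (0.563) and DSCC1 (0.584). SPTB, a spectrin, averaged 0.933 ± 0.173, 311 ± 42.6 and 51.2 ± 32.1 CPM in BRG1 KO, BRM KO and parental cells (SD, n = 3 each), and MUC5B averaged 0.889 ± 0.0651, 627 ± 76.8 and 53.2 ± 28.8 CPM. POLA2, a subunit of the DNA polymerase alpha complex, averaged 20.3 ± 5.59, 9.25 ± 3.06 and 62.9 ± 9.51 CPM, with the BRM KO group lowest as for MUC13. MUC13 itself averaged only 0.108, 0.0179 and 0.731 CPM in the same order of groups. A small count added before the log draws such low values together, so its distances do not show changes of like size. The SD of a member's own log2 CPM ran from 0.849 for MUC1 to 4.11 for MUC4, so distances do not compare between members. The distances describe 9 libraries that form 3 groups.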

How the data were processed

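RNA-seq of 3 groups of 3 H358 libraries was used. Each deposited file holds estimated counts and TPM per transcript of 1 library, made by the authors with Salmon, per the file headers. Salmon is also named, with DESeq2 and the hg38 build, per the submitters' processing notes. For Salmon's version, strand and bias options the labels give nothing. Estimated counts of 203746 of 203835 transcripts were summed per GENCODE 29 gene and rounded. The 89 others had no more than 0.0193% of the reads of any library. TPM from the deposited files were summed per gene and only described.

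With R 4.3.3, edgeR 4.0.16 (TMM, filterByExpr, 1 mean per group over all 9 libraries, robust glmQLFit, two-sided glmQLFTest) tested 18205 genes, and Benjamini-Hochberg adjustment ran over all of them with a threshold of 0.05. The test was tried on simulated data for BRG1 KO against parental cells. It recovered 50 of 100 changes of 2-fold and 95 of 100 changes of 4-fold, so a change of 2-fold can be missed. The error of a log2 fold change is its size divided by the square root of F, and is unreliable for genes with few reads. Against 0 reads, folds are bounds from 3 reads over the group, and intervals are exact binomial ones. No replicates agreed within sampling noise.

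The members and lists were chosen with earlier results of these data known. Besides the members and the edited genes, named genes are up to 4 per list and comparison with the largest called change and a mean of at least 1 log2 CPM, and the 2 genes most like each member. MUC2, MUC6, CD164, OVGP1, MCAM, MUC20P1, MUC20-OT1, APOD, TNK2-AS1, SCGB1A1, TFF1, TFF3 and the markers were named outside that rule or after their values were seen. Motifs, repeats and shared 31-base words were found by exact match in GENCODE 29 transcripts and RefSeq promoter windows. Alternatives were other scaling (size factors, upper quartile, library size), DESeq2 1.42.0, limma 3.58.1 voom, other filters, 6 samples, a transcript length offset, a replicate block, a GC and length correction chosen after seeing the data, and leaving out libraries.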

Additional observations from a re-analysis of the deposited data

Results flagged for a closer look

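The effects of the knockouts on 7 mucins, each measured against the same parental libraries, differed from each other by the direct edgeR test of BRG1 KO against BRM KO cells, which is the test of that difference. The log2 difference was -11.12 for MUC4 (adjusted p = 5.1e-06), -9.68 for MUC5AC (adjusted p = 6.94e-05), -9.46 for MUC5B (adjusted p = 2.74e-07), -8.65 for MUC15 (adjusted p = 1.51e-05), -7.66 for MUC16 (adjusted p = 1.7e-06), -3.38 for MUC20 (adjusted p = 0.00492) and -1.44 for MUC1 (adjusted p = 0.00232). The value of MUC5AC rests on 0 reads in BRG1 KO cells and is not a bound. All 3 BRG1 KO libraries were below all 3 BRM KO libraries for each of the 7 genes. The 2 groups were also separate for MUC13, in the other direction, though it was not called. Separation was not counted over all genes, so it does not set the 7 genes apart. MUC13 was the only member whose knockouts did not differ past the threshold.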

How the results depend on the processing

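Across 22 alternatives, 504 of 523 values of the members kept their direction and their side of the threshold. MUC20 in BRG1 KO against parental cells reversed to 0.41 without parental replicate 1 and to 0.57 with BRG1 KO replicate 3 left out as well, and MUC5AC in BRM KO against parental cells reversed to -0.10 with the GC content and length correction, chosen after seeing the data. None of the 3 values passed the test. SMARCA4 in BRM KO cells reversed to -0.26 under that correction, and SMARCA2 in BRG1 KO cells to 0.19 with BRG1 KO replicates 1 and 2 left out. The MUC20 call in BRM KO cells was also lost with no filter (2.09), with 6 samples (2.12) and with BRG1 KO replicates 1 and 2 left out (2.11), which also ended the calls of MUC20 in BRG1 KO against BRM KO cells (-3.94, adjusted p = 0.08) and of MUC13 in BRG1 KO against parental cells (-3.06, adjusted p = 0.0865). The cause was not tested. The stricter filter left MUC13 untested, so the number of mucins lower in BRM KO cells was 0. Leaving out 1 library at a time gave 6 to 7 mucins lower in BRG1 KO and 4 to 5 higher in BRM KO cells against parental cells, and 0 to 1 higher in BRG1 KO against BRM KO cells, where MUC13 passed without BRM KO replicate 1 (5.03, adjusted p = 0.0339). MUC20 in BRG1 KO against parental cells ranged from -1.66 to 0.41 there. Over all genes, 2457 to 4033 rose in BRM KO cells when 1 library was left out. Replicate numbers showed no clear pairing of the samples. Deviations of same-numbered libraries correlated at -0.079 to 0.175, beside -0.154 to 0.118 for differently numbered ones. With 3 libraries per group this cannot settle whether they were paired. With the replicate block, 7 mucins fell in BRG1 KO cells and 5 rose in BRM KO cells, MUC20 by 2.65 and MUC4 by 5.40. Depth limits MUC13, MUC15 and MUC5AC most.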
